A study of Mus musculus with 24 samples.

Results

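Across 24 mouse hearts sampled during experimental autoimmune myocarditis (EAM), 49 genes of the cell cycle and of DNA replication were examined out of 41388 Ensembl genes in the deposited count table. The genes were chosen by symbol and role, by a rule that uses no measured value but was made with earlier results of these data known, and each symbol matched 1 Ensembl identifier. They comprise 22 genes that act in S phase, when DNA is copied, and 27 that act in G2 phase and mitosis, when the copied chromosomes are condensed, sorted on the spindle and separated. Every one of the 49 passed the filter on low reads in every comparison, and none was at 0 reads in any heart. At D15 all but Melk, which had 10 reads in 3 of the 4 controls, reached 10 reads in every control heart.

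The hearts came from wild type Balb/c mice (BALB/cAnNCrl), all male and immunized at an age of 8 to 10 weeks. EAM mice were given a peptide of cardiac myosin heavy chain in supplemented complete Freund's adjuvant (SCFA) on day 0 and day 7, with pertussis toxin (PTX) on day 0. Control mice were given the same adjuvant with PBS and the same toxin, so every heart in the series came from an animal given adjuvant and toxin, and untreated hearts were not analysed here. There were 4 EAM and 4 control hearts at each of day 10, day 15 and day 21 (D10, D15 and D21), each a separate animal by its label, and RNA came from a portion of the heart. Tissue that showed inflammation was preferred for sequencing, so the EAM groups are not a random sample of immunized animals. The D21 EAM libraries carry another library code than all other libraries, so at D21 the effect of EAM and the library code cannot be told apart.

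Cells that enter the cycle switch on its genes in waves. E2F factors, held back by the retinoblastoma family until cyclin-dependent kinases release them, turn on the genes for replication at the start of S phase. The MuvB complex with MYBL2 and FOXM1 turns on mitotic genes later, often through a promoter element called CHR beside CCAAT boxes bound by NF-Y. Adult cardiomyocytes rarely divide, whereas activated lymphocytes, monocytes, fibroblasts and endothelial cells can, so in a whole heart these transcripts are a mixed measure over all cell types present. A transcript can also be present in cells that do not divide, which holds for several replication genes.

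Total counts per heart lay between 15814863 and 24980864 reads. Levels are given as CPM, the usual depth-scaled counts, here with library sizes adjusted by TMM, and on that scale 3 reads correspond to between 0.105 and 0.200 CPM. The defining genes of heart muscle, such as Myh6 and Tnnt2, were abundant in every heart, and the summed CPM of 7 cardiomyocyte markers ran from 6863 to 18173 in the EAM hearts of D15 and from 25432 to 29708 in the controls of that day. Mitochondrial genes took 3.19% to 4.31% of the reads of the D15 EAM libraries and 6.1% to 7.14% of those of the controls. D10 EAM heart 1 stood apart from the other D10 EAM hearts in the cell cycle genes and in leucocyte markers, and the D10 results that rest on it are given with and without it. It also held fewer cardiomyocyte markers (15712 CPM summed, against 23814 to 29252 in the other 3), fewer endothelial markers (726 CPM against 919 to 1114) and fewer mitochondrial reads (5.04% against 5.73% to 6.23%), whose part in its cell cycle values was not tested.

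The genes of the cycle were higher in EAM hearts at D15, by more among mitotic than among S phase genes. The quasi-likelihood test of edgeR, adjusted by Benjamini-Hochberg over all genes tested, called 43 of the 49 higher at an FDR under 0.01 and at least 2-fold, where 18.1% of the 15693 genes tested were called higher, and it called none of the 49 lower. Of the S phase genes 17 of 22 were called and of the mitotic genes 26 of 27. The median log2 fold change was 1.55 over the S phase genes and 2.58 over the mitotic genes, against 0.02 over all genes tested. For 48 of the 49 every EAM heart lay above every D15 control heart, where this held for 34.5% of the genes tested. These are bulk samples, in which fewer cells of a type and less RNA per cell cannot be told apart, and the same holds for more cells and more RNA.

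**Figure D1:**
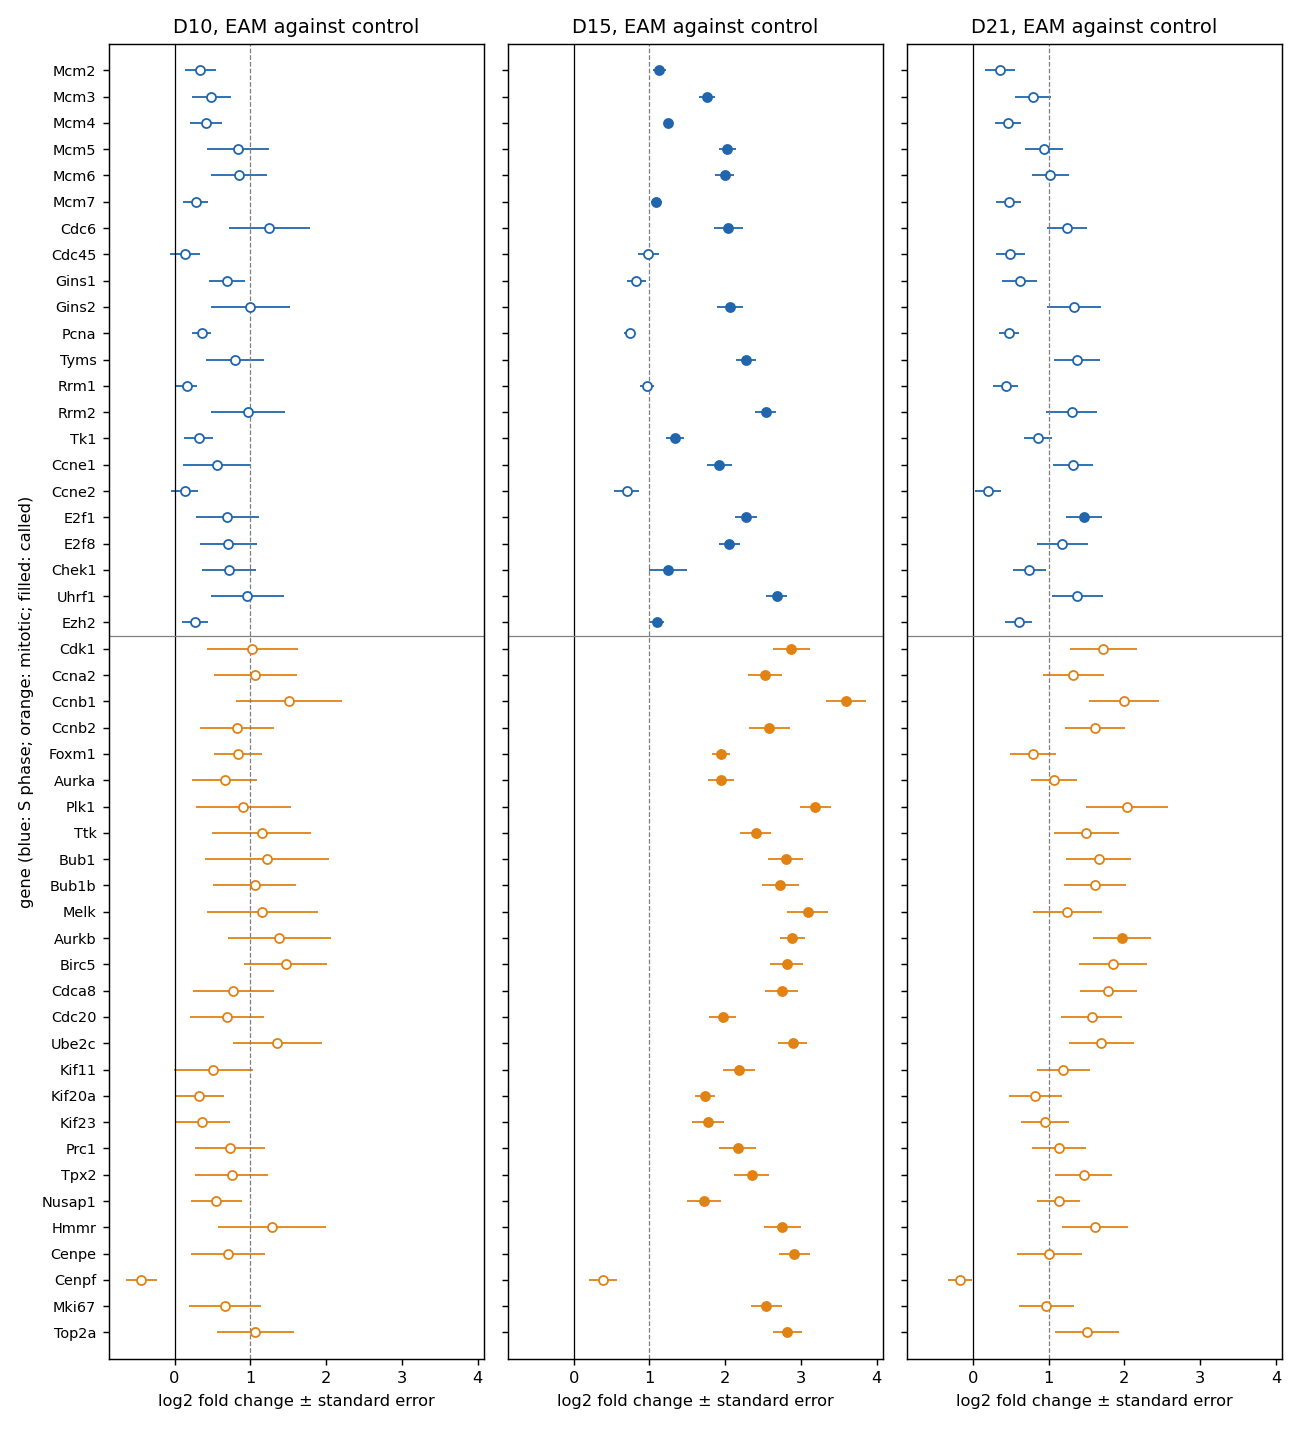
Log2 fold change of EAM against control hearts with its standard error for each of the 49 genes at D10, D15 and D21, from edgeR fits of 4 EAM and 4 control hearts a day. Blue points are S phase genes and orange points mitotic genes, filled points were called at an FDR under 0.01 and at least 2-fold, and the dashed line marks 2-fold. At D15 43 points are filled and at D21 only E2f1 and Aurkb, while Cenpf lies near 0 on every day.

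CHR and E2F elements were present in unequal shares of the promoters of the 2 groups. RefSeq windows of 300 bases, from 250 before to 50 after the start of transcription (GRCm38.p6), were matched for 40 of the 49 genes, of which 18 act in S phase and 22 in mitosis. Both strands were searched for the CHR element (TTTGAA or TTCGAA), for E2F elements (TTCCCGC as well as TTGGCGC, also TTCGCGC and further TTGCCGC) and for the CCAAT box (CCAAT), and the reverse of TTGGCGC can share bases with a CCAAT box. A CHR match was present in 17 of 22 mitotic promoters (77.3%) and in 4 of 18 S phase promoters (22.2%), beside 19.2% of all 32851 promoters and 13.9% of the 11358 whose genes were tested at D15. An E2F match was present in 11 of 18 S phase promoters (61.1%) and in 4 of 22 mitotic promoters (18.2%), beside 9.57% of all promoters and 16.3% of those of tested genes. Leaving out E2F matches that share bases with a CCAAT box left 10 of 18 and 3 of 22, beside 9.21% of all promoters. CCAAT boxes were present in 19 of 22 mitotic and 12 of 18 S phase promoters (86.4% and 66.7%), and in 37.4% of all promoters. All 17 mitotic and all 4 S phase promoters with a CHR match also held a CCAAT box, a combination present in 7.52% of all promoters. Such a match is a run of letters and not a measured binding site.

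**Figure D2:**
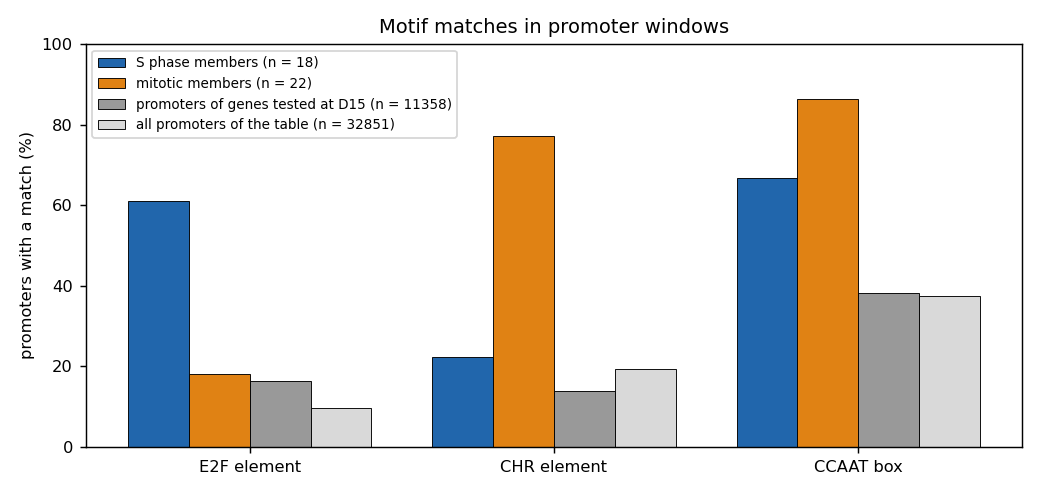
Percent of promoter windows with a match to each element, for 18 S phase and 22 mitotic promoters, for 11358 promoters of genes tested at D15 and for all 32851 promoters. CCAAT boxes have the highest share in both groups (66.7% and 86.4%), E2F matches are present in 61.1% of S phase and 18.2% of mitotic promoters, and CHR matches in 22.2% and 77.3%.

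The mitotic promoters shown are those of the genes with the largest fold changes at D15, Ccnb1 and Plk1, and of Ccnb2, which shows CHR elements beside several CCAAT boxes. Capitals mark the matches, each window reads 5′ to 3′ along the gene's own strand, and position 1 is the first transcribed base.
Ccnb1, chr13:100786437-100786736, minus strand: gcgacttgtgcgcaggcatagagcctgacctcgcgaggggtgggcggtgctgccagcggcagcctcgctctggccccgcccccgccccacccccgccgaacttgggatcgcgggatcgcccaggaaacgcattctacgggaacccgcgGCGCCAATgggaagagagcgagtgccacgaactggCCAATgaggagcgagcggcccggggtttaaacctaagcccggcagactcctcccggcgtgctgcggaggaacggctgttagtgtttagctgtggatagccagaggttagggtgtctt
Plk1, chr7:122159185-122159484, plus strand: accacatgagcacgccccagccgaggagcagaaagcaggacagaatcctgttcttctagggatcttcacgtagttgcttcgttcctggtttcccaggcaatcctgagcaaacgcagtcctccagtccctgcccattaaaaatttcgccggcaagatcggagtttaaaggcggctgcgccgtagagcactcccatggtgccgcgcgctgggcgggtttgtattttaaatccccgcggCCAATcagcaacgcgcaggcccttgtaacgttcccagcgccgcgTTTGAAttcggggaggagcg
Ccnb2, chr9:70421505-70421804, minus strand: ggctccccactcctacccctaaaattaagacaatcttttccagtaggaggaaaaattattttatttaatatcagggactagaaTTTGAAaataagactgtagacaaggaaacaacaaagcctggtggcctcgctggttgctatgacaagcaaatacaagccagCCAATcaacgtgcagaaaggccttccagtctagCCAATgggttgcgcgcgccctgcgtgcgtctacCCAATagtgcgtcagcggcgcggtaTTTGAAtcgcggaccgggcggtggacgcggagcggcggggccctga
In Ccnb1 an E2F match starting 102 bases before the start runs into a CCAAT box, a further CCAAT box lies 67 bases before the start, and the letters of the CHR element are not in this window. In Plk1 a CCAAT box starts 14 bases before the start and a CHR element at position 31. In Ccnb2 CCAAT boxes start 87, 54 and 21 bases before the start and CHR elements 167 bases before it and at position 5.

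The S phase promoters shown are those of Uhrf1 and Rrm2, which had the largest fold changes of that group at D15, and of Mcm5, which shows several E2F elements.
Uhrf1, chr17:56303087-56303386, plus strand: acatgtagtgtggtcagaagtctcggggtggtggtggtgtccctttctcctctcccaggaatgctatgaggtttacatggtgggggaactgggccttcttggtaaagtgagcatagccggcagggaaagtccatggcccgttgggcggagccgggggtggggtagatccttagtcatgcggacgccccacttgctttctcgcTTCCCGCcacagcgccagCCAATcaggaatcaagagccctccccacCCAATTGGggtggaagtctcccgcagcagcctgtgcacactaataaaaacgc
Rrm2, chr12:24708004-24708303, plus strand: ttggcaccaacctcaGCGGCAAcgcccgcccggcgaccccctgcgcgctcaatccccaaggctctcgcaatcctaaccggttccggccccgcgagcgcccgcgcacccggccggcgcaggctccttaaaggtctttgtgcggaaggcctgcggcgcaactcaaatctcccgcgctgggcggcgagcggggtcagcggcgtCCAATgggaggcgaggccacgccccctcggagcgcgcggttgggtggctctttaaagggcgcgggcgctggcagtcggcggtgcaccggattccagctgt
Mcm5, chr8:75109259-75109558, plus strand: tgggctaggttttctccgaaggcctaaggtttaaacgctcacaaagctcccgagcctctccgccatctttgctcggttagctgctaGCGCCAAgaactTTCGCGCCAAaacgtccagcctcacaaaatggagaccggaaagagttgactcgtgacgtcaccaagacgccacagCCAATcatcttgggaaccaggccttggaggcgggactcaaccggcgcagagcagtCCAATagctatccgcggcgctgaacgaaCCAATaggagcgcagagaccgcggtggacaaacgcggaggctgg
In Uhrf1 an E2F match starts 48 bases before the start, followed by a CCAAT box 30 bases before it and a pair of overlapping boxes on opposite strands across it. Rrm2 held its E2F match 235 bases before the start and a CCAAT box 50 bases before it. Mcm5 held E2F matches 164, 152 and 149 bases before the start, of which the last pair overlap, and CCAAT boxes 77 and 22 bases before it and at position 7. None of these 3 windows held the letters of the CHR element.

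Among the genes of the MCM helicase, which unwinds DNA at the fork, and of the factors that load and activate it, 8 of 10 were called higher at D15 (median log2 fold change 1.5). Mcm4, a subunit of the helicase ring, was at 36.4, 36.2, 38.5 and 39.5 CPM in the 4 EAM hearts and at 15.8, 16.7, 16.3 and 16.5 CPM in the 4 controls, a log2 fold change of 1.25 ± 0.06 SE. For Mcm7, another subunit, the EAM hearts held 30.5, 34.6, 30.1 and 29.5 CPM and the controls 14.2, 15.9, 15.1 and 14.8 CPM (1.09 ± 0.07 SE). Neither gene had overlapping groups, and the 4 EAM hearts were close to each other. Mcm3 reached 34, 39.6, 33.2 and 35 CPM in EAM hearts against 10.6, 12.2, 8.75 and 11.4 CPM in controls, with a log2 fold change of 1.76 ± 0.11 SE. The helicase subunits split into a lower set, Mcm2, Mcm4 and Mcm7 with log2 fold changes of 1.13, 1.25 and 1.09, and a higher set, Mcm3, Mcm5 and Mcm6 with 1.76, 2.03 and 2.0, although the proteins act in 1 ring. Cdc6, which loads the ring onto origins, had 2.04 ± 0.20 SE and Gins2, a subunit of the GINS activator, 2.07 ± 0.17 SE. The exons of Gins2 share 2758 bases with Gse1 on the other strand. Which strand setting the counting used is not stated.

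The other activators did not reach 2-fold. Cdc45, which joins the ring with GINS, was at 8.11, 9.77, 7.89 and 7.21 CPM in EAM hearts and 3.85, 5.19, 3.88 and 4.24 CPM in controls, a log2 fold change of 0.98 ± 0.14 SE with an adjusted p of 0.000157 by edgeR. Gins1, the partner of Gins2, was at 4.58, 4.97, 5.06 and 4.01 CPM against 2.71, 2.83, 2.38 and 2.89 CPM, with 0.82 ± 0.13 SE and an adjusted p of 0.000251. In both genes all EAM hearts lay above all controls, so the limit of 2-fold and not the FDR kept them from being called.

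Of the sliding clamp and the enzymes that supply nucleotides, 3 of 5 were called. Rrm2, the regulatory subunit of ribonucleotide reductase, had a log2 fold change of 2.54 ± 0.14 SE, and Tyms, the thymidylate synthase, 2.27 ± 0.13 SE. Rrm1, the catalytic subunit that pairs with Rrm2, was at 48.1, 57, 43.5 and 46.5 CPM in EAM hearts and 27.5, 23.6, 24.5 and 26.8 CPM in controls, a log2 fold change of 0.97 ± 0.09 SE (adjusted p 1.65e-05, edgeR). Pcna, the clamp that holds the polymerase on DNA, was at 94.2, 92.5, 86.1 and 75.3 CPM in EAM hearts and 53.2, 54.2, 51.4 and 55.6 CPM in controls, with 0.74 ± 0.08 SE and an adjusted p of 2.25e-05. The groups did not overlap for Rrm1 or Pcna, and the fold changes of the reductase subunits lay far apart. Pseudogenes of Pcna, Tyms, Ccnb1 and Ccnb2 are annotated, so the counts of these genes are uncertain to the extent that reads are shared.

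Among the cyclin E genes and the E2F factors 3 of 4 were called. E2f1, an activator of replication genes, was at 14.5, 16.6, 11.4 and 16.5 CPM in EAM hearts and 3.02, 3.42, 3.21 and 2.89 CPM in controls, a log2 fold change of 2.27 ± 0.14 SE. E2f8, a repressor that E2F activators induce, had 2.06 ± 0.14 SE. The 2 cyclin E genes, which drive entry into S phase, differed from each other: Ccne1 had 1.92 ± 0.16 SE, while Ccne2, at 6.49, 7.67, 6.33 and 6.06 CPM in EAM hearts and 4.06, 5.02, 2.95 and 4.83 CPM in controls, had 0.70 ± 0.17 SE with an adjusted p of 0.00412 by edgeR. The log2 fold change of Ccne2 was the lowest of the S phase genes on all 3 days. Its exons share 609 bases with Ints8 on the other strand, whose part in its counts was not tested.

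All 3 of the checkpoint kinase and chromatin genes were called. Uhrf1, which reads hemimethylated DNA behind the fork, was at 22.5, 25.9, 21.2 and 24.4 CPM in EAM hearts and 4.74, 3.54, 3.11 and 3.71 CPM in controls, the highest fold change of the S phase genes at 2.68 ± 0.14 SE. Ezh2, the methyltransferase of Polycomb complex PRC2, was at 15.3, 18.2, 16.1 and 14.6 CPM against 7.55, 8.56, 7.51 and 7.24 CPM, a log2 fold change of 1.09 ± 0.10 SE. The groups of both genes were far apart. Chek1, the kinase that answers stalled forks, had 1.24 ± 0.25 SE.

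The mitotic cyclins, their kinase Cdk1 and the factor Foxm1 were all called at D15. Ccnb1, cyclin B1, which with CDK1 drives entry into mitosis, was at 15.3, 19.9, 10.8 and 13.5 CPM in EAM hearts and 1.41, 0.767, 1.71 and 1.12 CPM in controls, and its log2 fold change of 3.59 ± 0.26 SE was the highest of the 49 genes, with the uncertainty of its annotated pseudogene. Ccna2, cyclin A2, which acts in both S phase and mitosis and is counted with the mitotic genes here, was at 23.4, 35.4, 20.8 and 21.6 CPM against 5.47, 3.66, 3.57 and 5.36 CPM (2.53 ± 0.22 SE). Foxm1, which activates mitotic genes, was at 16.1, 19.4, 14.3 and 17.2 CPM against 5.0, 4.19, 4.19 and 4.47 CPM (1.95 ± 0.12 SE). EAM heart 2 was the highest of the EAM hearts in all 3 genes, and the lowest EAM heart was above the highest control by a wide margin. Cdk1 had 2.87 ± 0.25 SE and Ccnb2 2.58 ± 0.27 SE.

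All 6 kinases of mitosis and of the spindle checkpoint were called. Plk1, which acts at centrosomes and kinetochores, was at 11.6, 15.5, 9.24 and 12.1 CPM in EAM hearts and 1.67, 1.12, 1.5 and 1.12 CPM in controls, a log2 fold change of 3.19 ± 0.20 SE. Bub1b, which delays anaphase until chromosomes are attached, was at 16.1, 25.1, 13.5 and 17.2 CPM against 3.49, 1.83, 2.64 and 3.18 CPM (2.72 ± 0.24 SE). Aurka, which matures centrosomes, was at 9.73, 11.7, 8.14 and 8.76 CPM against 3.13, 2.72, 2.33 and 2.06 CPM (1.94 ± 0.17 SE), the lowest fold change of the 6. In the chromosomal passenger complex, which corrects faulty attachments, Aurkb was at 11.9, 15.3, 10.0 and 10.5 CPM against 1.61, 1.53, 1.76 and 1.71 CPM (2.88 ± 0.17 SE) and Cdca8 at 11.5, 15.9, 9.32 and 11.6 CPM against 2.4, 2.01, 1.45 and 1.53 CPM (2.75 ± 0.22 SE). With Birc5 at 2.81 ± 0.21 SE, the 3 subunits of that complex had closely similar fold changes.

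Both partners of the anaphase-promoting complex, which marks cyclins for destruction, were called. Ube2c, its ubiquitin-conjugating enzyme, was at 14.1, 18.9, 13.1 and 13.7 CPM in EAM hearts and 2.5, 1.48, 1.76 and 2.53 CPM in controls (2.89 ± 0.20 SE), and its activator Cdc20 at 12.5, 18.8, 12.9 and 11.9 CPM against 4.11, 3.07, 3.99 and 3.53 CPM (1.97 ± 0.17 SE). All 7 kinesins and spindle proteins were called, with log2 fold changes from 1.72 for Nusap1 to 2.75 for Hmmr. Prc1, which bundles microtubules of the midzone, was at 22.8, 31.3, 17.4 and 19.9 CPM against 6.72, 3.72, 4.19 and 6.3 CPM (2.16 ± 0.24 SE), and Tpx2, which activates Aurora A on the spindle, at 21.9, 27.2, 16.7 and 19.7 CPM against 6.04, 2.83, 3.62 and 4.71 CPM (2.35 ± 0.23 SE). As among the cyclins, EAM heart 2 was the highest in each of these genes, while EAM heart 3 was the lowest for Prc1 and Tpx2. Ube2c shares 592 exon bases with the troponin gene Tnnc2, and Prc1 shares 911 with Rccd1, on the other strand in both cases.

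Of the 4 kinetochore and chromosome proteins 3 were called. Mki67, which coats mitotic chromosomes and is the usual marker of cycling cells, was at 59.7, 84.3, 49.6 and 70.1 CPM in EAM hearts and 14.3, 8.5, 10.2 and 13.5 CPM in controls (2.54 ± 0.21 SE). Top2a, the topoisomerase that untangles sister chromosomes, was at 58.2, 79.2, 55 and 60.2 CPM against 12, 7.02, 7.4 and 10.3 CPM (2.82 ± 0.19 SE), and the kinetochore motor Cenpe at 12.6, 17.8, 10.5 and 13.2 CPM against 1.98, 1.36, 1.97 and 2.06 CPM (2.91 ± 0.20 SE). None of these groups overlapped.

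Cenpf, a large protein of the kinetochore and nuclear envelope, was the exception. It was at 11.7, 16.5, 10.9 and 14.2 CPM in EAM hearts and 12.2, 9.33, 7.77 and 12.6 CPM in controls at D15, overlapping groups with a log2 fold change of 0.39 ± 0.18 SE and an adjusted p of 0.0821 by edgeR. At D10 its EAM hearts held 6.01, 4.31, 5.46 and 6.7 CPM and the controls 5.54, 9.32, 6.85 and 8.52 CPM (-0.44 ± 0.20 SE), and at D21 8.62, 13.1, 11.4 and 13.5 CPM against 11.3, 13.6, 14.7 and 13.3 CPM (-0.16 ± 0.16 SE). It was the only 1 of the 49 genes with a fold change below 0 at D10 or D21, neither of which passed the test, and set against the control hearts of all 3 days its D21 value was 0.19. Its promoter window held a CHR element and a pair of CCAAT boxes like most mitotic promoters.

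**Figure D3:**
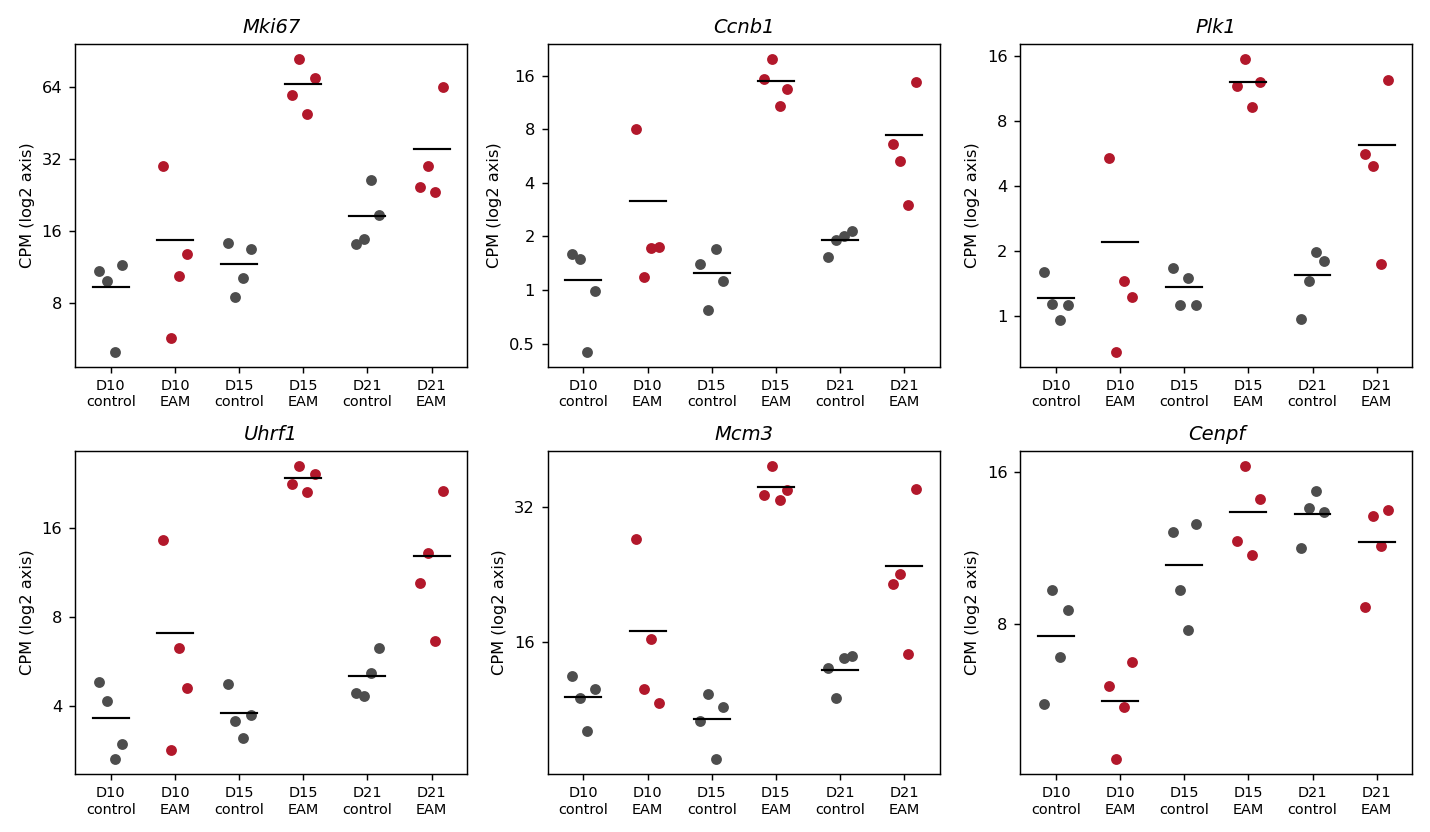
CPM of 6 genes in each of the 24 hearts on log2 axes, with EAM hearts in red, control hearts in grey and a bar at the mean of each group of 4. For 5 of the genes every D15 EAM heart lies above every D15 control heart, whereas the groups overlap for Cenpf, and D10 EAM heart 1 lies above the other D10 EAM hearts for all but Cenpf.

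To compare the groups within a heart, the mean log2(CPM + 1) over the S phase genes and over the mitotic genes was taken as a score. In D15 EAM hearts the S phase score was 4.13, 4.3, 4.04 and 4.04 and the mitotic score 3.96, 4.37, 3.72 and 3.91, against 2.81, 2.8, 2.66 and 2.83 and 2.21, 1.74, 1.9 and 2.03 in D15 controls. The mean difference between EAM and control was 1.35 for the S phase score and 2.02 for the mitotic score. The S phase score minus the mitotic score was 0.16, -0.07, 0.32 and 0.12 in the EAM hearts and 0.60, 1.06, 0.76 and 0.80 in the controls, so the gap was smaller in every EAM heart than in any control. Since the constant of 1 CPM shrinks changes of low genes, and many mitotic genes were near 1 CPM in controls, the score understates the mitotic difference more than that of S phase. With a constant of 0.25 the D15 differences were 1.49 and 2.30. No test is attached to the scores, because the genes were chosen with earlier results known.

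**Figure D4:**
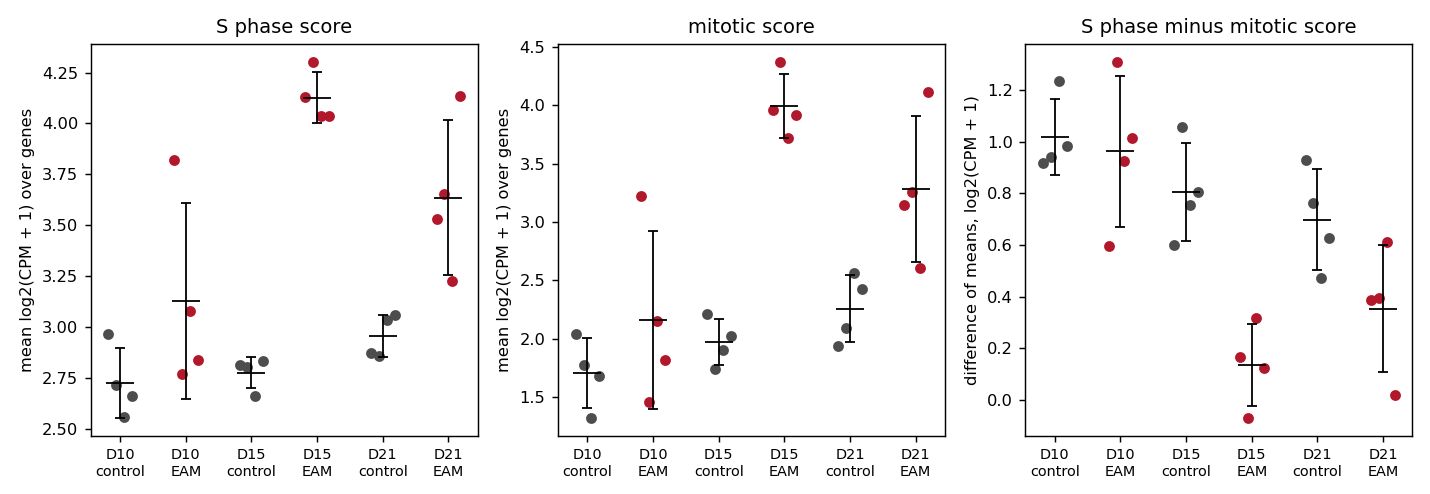
Mean log2(CPM + 1) over the 22 S phase genes and over the 27 mitotic genes, and the difference of the 2, in each of the 24 hearts, with the mean and SD of each group of 4. The D15 EAM hearts lie above all control hearts in both scores and below all control hearts in the difference.

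At D10 no gene in the table was called in either direction (0% of 15029 tested), so 0 of the 49 were called by edgeR's quasi-likelihood test. DESeq2 and the likelihood ratio test also called 0 of the 49, where they called 0.319% and 0.299% of all genes higher. At an unadjusted p under 0.05, 7 of the 49 were higher (Mcm6, Cdc6, Gins1, Pcna, Foxm1, Birc5 and Ube2c), which is 4 S phase and 3 mitotic genes, where 9.49% of all genes tested were higher at that limit. Without D10 EAM heart 1 there were 2, Gins1 and Pcna, where 6.09% of all genes were. The lowest adjusted p among the 49 was 0.328. The median log2 fold change was 0.63 over the S phase genes and 0.83 over the mitotic genes. It ran from 0.13 for Ccne2 to 1.25 for Cdc6 and from -0.44 for Cenpf to 1.51 for Ccnb1. Ccnb1, Ttk, Bub1 and Melk reached 10 reads in fewer than 4 D10 controls.

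These D10 medians rest in large part on EAM heart 1. Mki67 was at 30.0, 5.72, 10.4 and 12.8 CPM in the D10 EAM hearts and 10.8, 9.94, 5.0 and 11.6 CPM in the controls, and Ccnb1 at 8.0, 1.19, 1.73 and 1.74 CPM against 1.6, 1.49, 0.449 and 0.991 CPM. In both genes EAM heart 1 alone was above all 4 controls by a factor over 2. Of the 49 genes, 48 lay above all 4 controls in EAM heart 1, 5 in heart 2, 31 in heart 3 and 10 in heart 4, where 37.2%, 25.8%, 33.9% and 21% of all genes tested did so. The 5 of heart 2 were all S phase genes, while heart 3 had 16 S phase and 15 mitotic genes above all controls. Without EAM heart 1 the medians were 0.21 for the S phase genes and 0.13 for the mitotic genes, and still no gene was called. Gins1 and Ezh2 were the 2 genes with no overlap between EAM and control hearts at D10, where 4.41% of genes tested had EAM hearts above all controls. Gins1 was at 5.52, 4.48, 3.51 and 3.43 CPM against 3.25, 2.56, 2.98 and 1.59 CPM, and Ezh2 at 14, 8.67, 8.63 and 8.76 CPM against 8.33, 8.55, 8.09 and 8.06 CPM, where the 3 EAM hearts other than heart 1 were close to the highest control.

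Leucocyte markers varied with the cell cycle genes among D10 EAM hearts. The summed CPM of 6 leucocyte markers (Ptprc, Laptm5, Coro1a, Cd52, Cd53 and Lcp1) was 1470.4, 275, 558 and 355 in EAM hearts 1 to 4, and the mitotic score was 3.22, 1.46, 2.15 and 1.82, which is the same order. The controls held 192 to 356 CPM of these markers. Of these lists all 6 leucocyte and all 5 neutrophil markers had an unadjusted p under 0.05, beside the 9.49% of all genes that were higher at that limit, and none was called. Without D10 EAM heart 1 this held for 1 leucocyte and 0 neutrophil markers, where 6.09% of all genes were higher. Their part in the D10 values was not tested.

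At D21 the median fold changes were again above 0, and for the leading mitotic genes the EAM hearts were spread more widely than at D15. Without adjustment, 46 of the 49 had a higher level at p under 0.05, where 25.4% of 15266 genes tested were, but 2 were called, E2f1 and Aurkb, where 4.3% of all genes were called higher. The median log2 fold change was 0.83 over the S phase genes and 1.5 over the mitotic genes, against -0.01 over all genes tested. E2f1 was at 11.3, 10.3, 7.01 and 14 CPM in EAM hearts and 3.3, 3.31, 4.51 and 4.61 CPM in controls (1.46 ± 0.24 SE; adjusted p 0.00639, edgeR). Aurkb was at 6.36, 7.08, 4.28 and 13.8 CPM against 1.78, 1.49, 2.36 and 2.56 CPM (1.97 ± 0.38 SE; adjusted p 0.00906, edgeR). Blocking on the replicate number gave 0 of the 49 called, where 4.23% of all genes were called higher. The block was tried because same-numbered hearts deviated together at D21, which does not show that they are pairs. The adjusted p was under 0.05 for 36 of the 49 (median 0.0261, edgeR), where 18.8% of all genes were higher at that limit, and DESeq2 and the likelihood ratio test of edgeR called 29 each, where they called 8.93% and 8.88% of all genes higher.

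Heart 4 was the highest and heart 3 the lowest D21 EAM heart for the leading mitotic genes. Mki67 was at 24.4, 29.9, 23.2 and 64.3 CPM in EAM hearts 1 to 4 and 14.1, 14.8, 26.1 and 18.7 CPM in controls (0.97 ± 0.36 SE), Top2a at 26.7, 30.0, 17.1 and 65.5 CPM against 8.39, 9.94, 17.5 and 14.3 CPM (1.5 ± 0.42 SE), and Ccnb1 at 6.6, 5.28, 3.01 and 14.7 CPM against 1.52, 1.92, 2.01 and 2.15 CPM (2.0 ± 0.47 SE). Here heart 4 was at the level of the D15 EAM hearts and heart 3 close to or within the controls. Plk1 had the highest fold change of that day, 2.03 ± 0.54 SE, with 5.62, 4.9, 1.74 and 12.4 CPM in EAM hearts and 0.966, 1.44, 1.97 and 1.79 CPM in controls. Its heart 3 lay inside the control range. Among the S phase genes Uhrf1 was at 10.4, 13.2, 6.61 and 21.3 CPM against 4.42, 4.32, 5.16 and 6.3 CPM (1.38 ± 0.34 SE), and the lowest value was that of Ccne2, 0.20 ± 0.17 SE. For 32 of the 49, 17 S phase and 15 mitotic genes, all EAM hearts lay above all controls, where this held for 17.8% of genes tested. Heart by heart, 44, 47, 33 and 48 of the 49 lay above all 4 controls in EAM hearts 1 to 4, where 38.4%, 36%, 33.9% and 39.4% of all genes did.

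The S phase score in the D21 EAM hearts was 3.53, 3.65, 3.22 and 4.14 and the mitotic score 3.14, 3.26, 2.61 and 4.12, against 2.87, 2.86, 3.03 and 3.06 and 1.94, 2.09, 2.56 and 2.43 in controls. The difference of S phase and mitotic scores was 0.39, 0.39, 0.61 and 0.02 in EAM hearts and 0.93, 0.76, 0.47 and 0.63 in controls, which overlapped. The leucocyte markers summed to 1367, 788, 395 and 1770.4 CPM in EAM hearts 1 to 4 and 136 to 241 CPM in controls, so heart 3 was the lowest and heart 4 the highest on both measures. Without EAM heart 3, 29 of the 49 were called at D21, where 9.8% of all genes were, without EAM heart 4 the count was 2, where 2.01% were, and leaving out any other heart gave 0, where 0% to 0.126% of all genes were called higher. Fibroblast markers summed to 2884 to 8388 CPM in D21 EAM hearts and 1491 to 1807 CPM in controls. Of the 5 fibroblast markers 2 were called higher, where 4.3% of all genes were, so the sum does not stand for each of them. Cardiomyocyte markers ran from 12331 CPM in EAM heart 4 to 29449 CPM in EAM heart 3. How far these cell types set the D21 values was not tested.

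**Figure D5:**
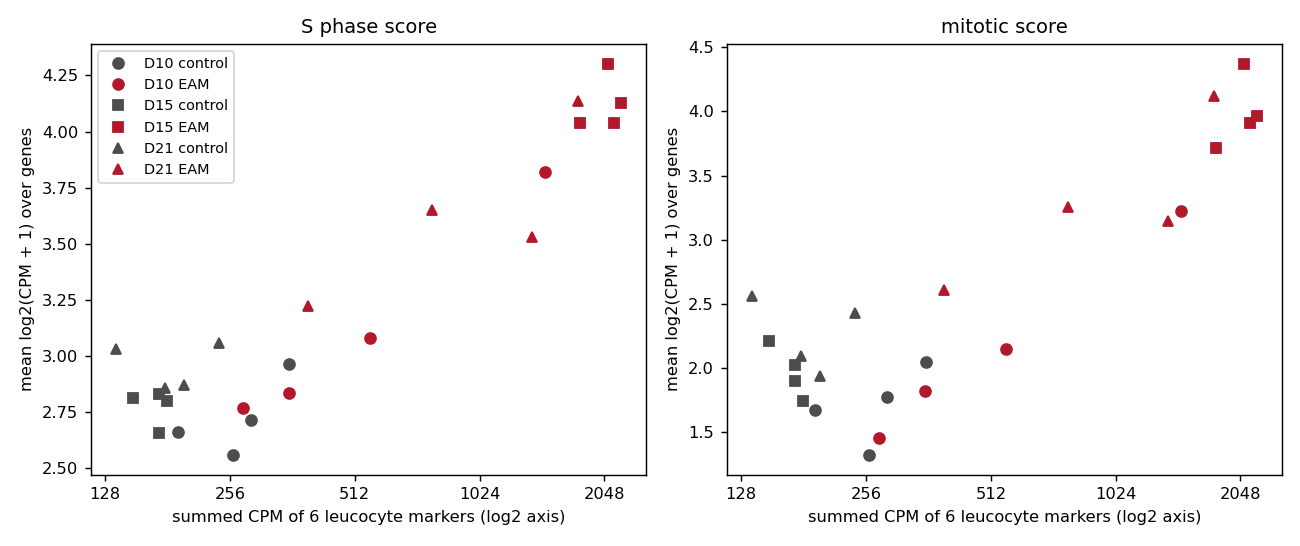
S phase and mitotic scores of the 24 hearts, in mean log2(CPM + 1), against the summed CPM of 6 leucocyte markers on a log2 axis, with EAM hearts in red, control hearts in grey and symbols for the day. Leucocyte markers and mitotic scores run from 275 to 1470.4 CPM and 1.46 to 3.22 in D10 EAM hearts, from 1785 to 2248 CPM and 3.72 to 4.37 at D15, and from 395 to 1770.4 CPM and 2.61 to 4.12 at D21, while all control hearts lie at 136 to 356 CPM and 1.32 to 2.56.

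Whether the effect of EAM differed between days was tested as a contrast in a fit of all 24 hearts. The difference of the D15 and D10 effects was above 0 for all 49 genes, a sign shared by 48.3% of all genes, with 39 at an unadjusted p under 0.05 (17 S phase and 22 mitotic), where 23.8% of 16318 genes were, and with median differences of 0.89 for S phase and 1.49 for mitotic genes. Without D10 EAM heart 1 the medians were 1.30 and 2.34, and 48 were at that limit, where 28.4% of all genes were. EdgeR called 3 of them, where 5.3% of all genes were called higher. The differences were 1.22 ± 0.32 SE for Mcm3 with an adjusted p of 0.00555, 1.53 ± 0.43 SE for E2f1 with 0.0082, and 2.16 ± 0.62 SE for Cenpe with 0.00903. At D10 Mcm3 was at 27.1, 12.6, 16.3 and 11.7 CPM in EAM hearts and 13.4, 12, 10.1 and 12.6 CPM in controls, E2f1 at 9.37, 2.44, 4.34 and 3.17 CPM against 4.0, 3.02, 2.53 and 2.45 CPM, and Cenpe at 6.41, 1.42, 2.45 and 1.79 CPM against 2.51, 1.54, 1.35 and 2.18 CPM. Heart 1 is again the highest of each set. Without D10 EAM heart 1 the contrast called 39 of the 49, where 12% of all genes were called higher, and without other hearts the count lay between 0 and 9, where 2.91% to 6.59% of all genes were. It was 0 on leaving out any 1 of 8 hearts. Gins1 had the smallest difference, 0.08 ± 0.29 SE.

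The difference of the D21 and D15 effects was below 0 for all 49 genes, a sign shared by 50.1% of all genes, but none was called by edgeR, where 0.968% of genes were called lower. At an unadjusted p under 0.05, 17 were lower (10 S phase and 7 mitotic), where 17.4% of all genes were, and DESeq2 and the likelihood ratio test called 1 each, where they called 1.54% and 1.54% of all genes lower. Without D21 EAM heart 4 the contrast called 5, where 2.81% of all genes were called lower, and without D10 EAM heart 1 it called 2, where 1.68% were. The median differences were -0.74 for the S phase genes and -1.02 for the mitotic genes. All 6 helicase subunits Mcm2 to Mcm7 were among the 17, with an adjusted p of 0.0191 for Mcm4 (-0.77 ± 0.23 SE). Cenpe had the largest difference of the mitotic genes, -1.89 ± 0.58 SE with an adjusted p of 0.0197, and was at 5.42, 6.05, 3.41 and 12.1 CPM in D21 EAM hearts and 1.88, 2.78, 5.12 and 3.89 CPM in D21 controls. This contrast shares the D15 hearts with the contrast of D15 and D10, and holds the library code of the D21 EAM hearts on 1 side.

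Among control hearts of different days 1 of the 49 genes was called. In a fit of the control hearts alone, the fitted difference of D21 and D10 controls was above 0 for all 49 genes, a sign shared by 50.2% of all genes, with a median log2 difference of 0.76 over the mitotic genes, 0.25 over the S phase genes and 0.00 over all genes tested. At an unadjusted p under 0.05, 33 of the 49 were higher, of which 23 were mitotic and 10 S phase genes, where 15% of all genes were higher. Foxm1 alone was called (1.03 ± 0.19 SE, adjusted p 0.00702, edgeR), where 0.607% of genes were called higher. Blocking on replicate number ended that call, where 0.705% of genes were called higher. No check linked the replicate numbers of control hearts across days. Foxm1 was at 3.54, 3.33, 2.47 and 2.51 CPM in D10 controls, 5.0, 4.19, 4.19 and 4.47 CPM in D15 controls and 5.49, 4.32, 8.4 and 5.99 CPM in D21 controls, and neither later group overlapped D10. The largest difference was that of Prc1, 1.23 ± 0.30 SE, and the smallest mitotic one that of Cdca8, 0.17 ± 0.22 SE. Mki67 was at 10.8, 9.94, 5.0 and 11.6 CPM in D10 controls and 14.1, 14.8, 26.1 and 18.7 CPM in D21 controls (0.99 ± 0.25 SE; adjusted p 0.0246, edgeR). For 7 of the 49 the D21 controls lay above all D10 controls (Mcm2, Cdc6, Ccne2, Foxm1, Prc1, Cenpf and Mki67), where 9.13% of genes tested did. The call of Foxm1 ended on leaving out any 1 of 8 of the control hearts (3 of D10, 2 of D15 and 3 of D21).

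Leucocyte markers had differences of the opposite sign in these hearts. All 6 were lower in D21 than in D10 controls at an unadjusted p under 0.05, where 13.4% of all genes were lower, with a median log2 difference of -0.56, and the 5 neutrophil markers had a median of -1.67. Summed leucocyte markers were 192 to 356 CPM in D10 controls and 136 to 241 CPM in D21 controls. D21 control heart 3 had the highest mitotic score of all control hearts (2.56) with the lowest leucocyte sum (136). Endothelial markers summed to 1070 to 1145 CPM in D10 controls and 1185 to 1414 CPM in D21 controls, without overlap. Mitochondrial genes took 6.04% to 7.69% of reads in D10 controls and 5.45% to 5.79% in D21 controls. Sums of fibroblast and of cardiomyocyte markers overlapped. The part of these in the control differences was not tested. D15 controls differed from the same D10 controls by a median of 0.42 in mitotic genes and 0.05 in S phase genes. None of the 49 was called in that comparison, where 0% of genes were called higher, and 6 had a higher level at p under 0.05 without adjustment (Cdc6, Foxm1, Ttk, Cdc20, Prc1 and Cenpf), where 8.45% of genes were. Both comparisons share the D10 controls.

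The rest of the cell cycle was read from a list of 98 further genes. At D15, 43 were called higher and 3 lower, with a median log2 fold change of 0.81, beside 18.1% and 12.9% of all genes tested. Of the 43, 7 (Cdca5, Cdc25c, Cdkn3, Fen1, Kif18b, Orc1 and Ticrr) had 10 reads in fewer than 4 D15 controls and passed the filter only with the EAM hearts, where they were high. These 7 add no support to the counts they are part of. Kinetochore, condensin and cytokinesis genes made up most of the 43, with 26 of 32 higher and a median of 2.06. Of these 26, 3 were among the 7, including Cdca5, the cohesion factor sororin, which led the list (3.48 ± 0.28 SE). Of 15 genes for licensing and firing of origins 5 were higher, led by Mcm10 (3.08 ± 0.19 SE), and of 21 polymerase and fork genes 7 were, led by the ligase Lig1 (1.92 ± 0.13 SE). Their medians of 0.70 and 0.63 were below that of the mitotic genes on the list, as among the 49 genes in the same hearts. Gmnn, geminin, which blocks relicensing, fell by 1.11 on the log2 scale, from 42.9, 45.6, 44.4 and 52.4 CPM in controls to 20.0, 21.2, 25.1 and 17.4 CPM in EAM hearts, and was called lower while its target Cdt1 was called higher.

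Of 30 upstream regulators in 3 lists, 5 were called higher (16.7%) and 2 lower (6.67%) at D15, beside 18.1% and 12.9% of all genes tested, so the share called higher was close to that of all genes. None of 6 D cyclins and their kinases was called, and Ccnd1 and Ccnd2, which carry growth signals to the retinoblastoma family, had log2 fold changes of -0.46 ± 0.12 SE and -0.07 ± 0.10 SE. Among 16 pocket proteins and other E2F and MYB family genes 3 were called higher and 1 lower, from -1.3 ± 0.09 SE for the repressor E2f6 to 2.99 ± 0.22 SE for Mybl2, the MuvB partner of S phase and mitosis. Mybl2 was at 7.4, 8.33, 5.78 and 6.4 CPM in D15 EAM hearts and 0.885, 0.649, 0.725 and 1.35 CPM in controls. Of 8 inhibitors of cyclin-dependent kinases 2 were called higher and 1 lower. Cdkn1c, which encodes p57, was called lower (-1.64 ± 0.22 SE), with 6.45, 5.25, 9.03 and 4.63 CPM against 26.4, 17.8, 20.3 and 16.7 CPM, whereas Cdkn3, a phosphatase expressed with mitotic genes, had 2.53 ± 0.42 SE but 10 reads in only 1 of the 4 controls, so it passed the filter only with the EAM hearts and adds no support to the counts it is part of. Cdkn1a, which encodes p21, was at 123, 156, 135 and 133 CPM in EAM hearts and 31.1, 60.1, 85.5 and 109 CPM in controls and was not called (0.98 ± 0.31 SE). At D21 4 of the 98 were called higher, Cdca3, Cdca5, E2f2 and Cdkn2a, where 4.3% of all genes were (Cdkn2a had 10 reads in 1 of the 4 controls and Cdca5 in 3, so both passed the filter only with the EAM hearts), with a median of 0.39 over the list, and at D10 none of the 93 tested was.

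Markers of some other cell types were higher along with the cycle genes at D15, and those of others were not. All 6 leucocyte, 7 monocyte and macrophage and 5 neutrophil markers were called higher, beside 18.1% of all genes tested, with Ptprc, the CD45 gene, at 305, 256, 243 and 299.5 CPM in EAM hearts and 16.8, 16.5, 17.8 and 20.7 CPM in controls. The neutrophil marker Retnlg had 10 reads in 3 of the 4 controls. Since 8 of 9 T cell markers passed the filter only with the EAM hearts, they are given by level. They summed to 95.4 to 130 CPM in EAM hearts and 14.1 to 20.8 CPM in controls, and monocyte and macrophage markers to 3249 to 4639 CPM against 492 to 554 CPM. Fibroblast markers summed to 4321 to 10312 CPM against 1304 to 1560.2 CPM, with 2 of 5 called. The collagens Col1a1 (4.45 ± 0.38 SE) and Col1a2 (3.64 ± 0.34 SE) were those called, whereas Dcn (0.17 ± 0.12 SE), Tcf21 (-0.36 ± 0.20 SE) and Pdgfra (0.73 ± 0.08 SE) were not. The 8 granulocyte and erythroid precursor markers summed to 20.9 to 59.0 CPM against 11.1 to 24.1 CPM, and Elane, Mpo and Prtn3 among them reached 10 reads in every EAM heart and in 0 of the 4 controls. No B cell marker was called and none of the 5 endothelial markers was higher, with summed endothelial levels of 656 to 728 CPM in EAM hearts and 965 to 1282 CPM in controls. No marker of these lists was at 0 reads in all 4 hearts of a group. Within D15 the order of the EAM hearts differed between measures, since heart 2 had the highest mitotic score and heart 1 the highest leucocyte sum (2248 CPM). The part of each cell type in the higher cell cycle genes was not tested.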

How the data were processed

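Heart RNA of 24 mice was sequenced. The authors aligned read pairs to GRCm38 with HISAT2 (2.0.4 in the submitters' processing notes), removed duplicates with Picard and deposited featureCounts counts for Ensembl genes, raw and not normalized. The strand setting of featureCounts is not given in the sources used. Counts in the table of all samples and in the files of each sample differed in 0 cells. Samples were grouped by their labels.

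The analysis used edgeR 4.0.16 in R 4.3.3, with limma 3.58.1 and DESeq2 1.42.0 as alternatives, and in Python 3.11.15. A gene was kept where 4 or more hearts of a fit had 10 or more reads, TMM scaling was applied, and EAM and control hearts of each day were compared by the quasi-likelihood test of edgeR on all genes kept, with Benjamini-Hochberg adjustment over all of them. Genes at an FDR under 0.01 and at least 2-fold were called. Differences of the effect between days were contrasts in a fit of all 24 hearts, and control hearts were fitted on their own. The standard error of a log2 fold change was taken from its F statistic. A score is the mean of log2(CPM + 1). The edgeR fits were tested on simulated data. Alternatives were other normalizations, filters, tests, control sets, a replicate block and leaving out each heart.

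The 49 genes, the other lists and the tests were chosen with earlier results of these data known. CPM of every heart are given for the 2 genes with most reads of each role, Mki67, Ccnb1, genes not called at D15, and genes called elsewhere where 5 or fewer were. The extremes of each set and list are named. Cdca3 and Cdt1 were named after their values were seen, as were Plk1 and others whose hearts are given as extremes. P-values measure the spread between these hearts. Floors of 3 reads reflect counting error alone, since reads need not be separate molecules.

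No label explains the replicate numbers. Same-numbered EAM and control hearts deviated together, with correlations over 0.1, in 4 of 4 pairs at D21 (0.107 to 0.316). This held for 2 of 4 at D10 (0.383 and 0.430) and 0 of 4 at D15. The numbers were taken as pairs at D21 only and from this check alone. Differently numbered hearts were not compared, nor were control hearts of different days, so the check does not establish pairs. Promoter windows are RefSeq's (GRCm38.p6), with the first window used for the 3 genes that have several. Gene overlaps are from GENCODE M21.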

Additional observations from a re-analysis of the deposited data

Results flagged for a closer look

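Among 174 checks of single hearts within groups of 4, made on 26 named genes and 3 scores, 9 found 1 heart far from the other 3. Chance sets apart about 1 in 20 groups, a share close to that found here. These genes vary together, so the checks are not independent. Of these 9, 6 were D10 EAM heart 1, which was high in Mcm4 (32.8 CPM), Ccne2 (5.74 CPM), Ezh2 (14 CPM), Aurka (6.36 CPM), Ccnb1 (8.0 CPM) and Cdc45 (7.07 CPM). This heart also held the most leucocyte markers of its group (1470.4 CPM), and the part of these in its values was not tested. The remaining ones were Cenpe in D15 control heart 2 (1.36 CPM, low), Cdc20 in D15 EAM heart 2 (18.8 CPM, high) and Mki67 in D21 EAM heart 4 (64.3 CPM, high).

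The effect of EAM was larger at D15 than at D10 by the test of the difference itself for E2f1 (1.53 on the log2 scale), Mcm3 (1.22) and Cenpe (2.16). All 4 D15 EAM hearts lay above all D15 controls in each of these genes. At D10 1 of the 4 EAM hearts lay above all D10 controls in Cenpe, and 2 did in Mcm3 and in E2f1. These are 3 of the 49 genes, where 5.3% of all genes were called higher. Leaving out D10 EAM heart 1 raised the count to 39, and the share of all genes to 12%, while leaving out any 1 of 8 other hearts lowered the count to 0.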

How the results depend on the processing

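The D15 count held under every alternative run, at 43 to 45 of 49 with 1 heart left out, and the count at D10 stayed 0. Scaling by total counts shifted the median log2 fold change of all genes at D15 from 0.02 to 0.17, put the S phase median at 1.70 and the S phase score difference at 1.52, and brought Rrm1 (1.12) and Cdc45 (1.13) past 2-fold. With a pseudocount of 0.25 CPM the D15 score differences were 1.49 (S phase) and 2.30 (mitotic). The D21 count of 2 was 29 with DESeq2 and with the likelihood ratio test, 0 with limma-voom, 36 against the control hearts of all days and 22 in a fit of all hearts, where 0.524%, 10.2% and 9.6% of all genes were called higher. The D15 minus D10 count of 3 was 1 without a filter, 12 with DESeq2 and 9 with the likelihood ratio test (2.66%, 8.05% and 7.65% of all genes), and the D21 minus D15 count of 0 was 1 with either. The control D21 minus D10 count of 1 was 3 with DESeq2 and the likelihood ratio test and 0 with limma-voom (1.03%, 1.19% and 0.242% of all genes). Cenpf at D21 turned to 0.19 against the control hearts of all days. The causes were not tested. With the replicate block, for numbers taken as pairs at D21 only, the D21 count was 0 and the control D21 minus D10 count 0. The other counts of calls were 0 (D10), 43 (D15), 3 (D15 minus D10) and 0 (D21 minus D15).

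Leaving out each heart in turn gave counts of 0 to 29 at D21 (0% to 9.8% of all genes called higher) and 0 to 39 for D15 minus D10 (2.91% to 12%). Counts were 0 to 5 for D21 minus D15 (0.503% to 2.81% of all genes called lower) and 0 to 1 for control D21 minus D10 (0% to 0.838% called higher). The S phase and mitotic medians ranged from 0.21 to 0.78 and 0.13 to 1.06 at D10, 1.5 to 1.64 and 2.43 to 2.82 at D15, 0.66 to 0.95 and 0.99 to 1.68 at D21, 0.76 to 1.30 and 1.2 to 2.34 for D15 minus D10, -0.92 to -0.57 and -1.39 to -0.85 for D21 minus D15, -0.00135 to 0.15 and 0.19 to 0.59 for control D15 minus D10, and 0.17 to 0.35 and 0.58 to 0.97 for control D21 minus D10. Score differences of S phase, mitotic and their gap ranged from 0.17 to 0.52, 0.11 to 0.69 and -0.17 to 0.06 at D10, 1.29 to 1.38, 1.89 to 2.11 and -0.74 to -0.59 at D15, and 0.51 to 0.82, 0.75 to 1.25 and -0.43 to -0.23 at D21. With 4 hearts a group, fold changes under 2 were not called whatever their FDR, and many D21 values lay near the FDR limit.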
